A study of Homo sapiens with 8 samples.

Results

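The genes described here encode the subunits of RNA polymerases I, II and III. They were chosen by gene symbol: every row of the expression table whose symbol starts with POLR1, POLR2 or POLR3 was taken, which gave 31 of 25369 rows, and no measured value entered that choice of rows. The family itself was put forward with earlier results of the same comparison known, so counts over its members are descriptions and support nothing by themselves. All 31 members passed the filter on low values, which asked for 4 libraries at 1 RPKM or above, as did 11122 rows in all. RPKM is the number of reads per kilobase of gene length, relative to all reads counted in genes.

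RNA polymerase I makes the precursor of the large ribosomal RNAs in the nucleolus, RNA polymerase II makes messenger RNA and many non-coding RNAs, and RNA polymerase III makes transfer RNAs and other short RNAs. Each enzyme has a catalytic pair of large subunits, smaller subunits of its own, and subunits that it shares with the other enzymes. POLR2E, POLR2F, POLR2H, POLR2K and POLR2L are shared by all of them, and POLR1C and POLR1D are shared by polymerases I and III. Making ribosomes and transfer RNAs is among the largest biosynthetic costs of a growing cell, and the output of polymerases I and III is known to follow nutrient and growth signals.

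The cells were EPC2-hTERT, a line of human esophageal keratinocytes immortalized with telomerase, of wild-type genotype and grown as a stratified layer at an air-liquid interface. In 4 libraries the cultures had received 1 mM dimethyloxalylglycine (DMOG), an inhibitor of prolyl hydroxylases that stabilizes hypoxia-inducible factors, for 18 h. In the other 4 libraries they had received the DMSO vehicle. Everything comes from a single line, and no label states that the replicates were grown separately, so the p-values cover the spread among these libraries, which may be technical.

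The libraries held 31245695 to 39931833 reads in genes, of which the 31 members took 0.103% to 0.129%. Values are given as scaled RPKM, the deposited RPKM divided by a median-ratio factor for each library (0.910, 1.05, 0.924 and 0.843 for DMOG replicates 1 to 4, and 1.117, 1.00, 1.066 and 1.129 for vehicle replicates 1 to 4). In the median over the 31 members, DMOG replicate 2 differs least from vehicle among the DMOG libraries, as given further on. The authors' own comparison gives DMOG replicate 2 and vehicle replicate 2 no weight. The main counts are therefore given over all 8 libraries and over the 6 libraries of replicates 1, 3 and 4. Where a gene has only 1 fold change and adjusted p, these are from the fit over 6 libraries. Why replicate 2 was left out is not stated in the labels or files, and p-values over 6 libraries do not allow for that choice. Markers of squamous epithelium were abundant, with summed scaled RPKM of 14180 to 17100 over 8 genes in DMOG libraries and 9324 to 18720 in vehicle libraries. Of 6 fibroblast, 5 leukocyte and 4 endothelial markers, only COL1A1 and VWF reached 1 in every library, and DCN and LUM were listed at 0 in all 8. COL1A1 rose by 1.32 on the log2 scale (adjusted p = 0.00538) and CD14 had -1.05 (0.00596) over 6 libraries.

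Over the 6 libraries, 11 of the 31 polymerase genes fell with DMOG and 2 rose. Among the genes that fell were POLR1A and POLR1B of polymerase I, POLR2G of polymerase II, POLR3B, POLR3E, POLR3G and POLR3K of polymerase III, and the shared POLR2E, POLR2F and POLR2K. The genes that rose were POLR2A, the largest subunit of polymerase II, and POLR1D. The other 18 did not pass (limma-trend, Benjamini-Hochberg adjusted p, threshold 0.05). Members called lower made up 35.5% and members called higher 6.45%, beside 16.0% and 13.9% of the 11122 genes tested. Log2 fold changes were below 0 for 27 of 31 members, with a median of -0.23, and for 49.7% of all genes tested, with a median of 0.00. With RPKM as deposited, where the median gene stood at -0.26, 19 members were called lower and 0 higher, beside 3836 and 682 of the 11122 genes tested. POLR1D and POLR2A then kept log2 fold changes above 0 but did not pass (0.575, adjusted p = 0.0733, and 0.279, adjusted p = 0.152). Their calls as higher thus depend on the scaling between libraries. With the replicate number as a block, 13 members were called lower and 2 higher, beside 2297 and 2196 of all genes tested.

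Over all 8 libraries, limma-trend called 0 members in either direction, beside 0% of all genes in each direction. The smallest adjusted p of a member was 0.118. At an unadjusted p under 0.05, 10 members were lower and 1 was higher, against 16.3% and 14% of all genes, and limma-voom on reads also called 0. The median member stood at -0.21. Leaving out DMOG replicate 2 alone gave 10 members lower and 2 higher, beside 1957 and 1730 of the 11122 genes tested. The calls over 6 libraries rest on few libraries. Members called lower numbered 2, 6 and 1 without vehicle replicates 1, 3 and 4, beside 497, 987 and 550 of the 11122 genes tested. They numbered 1, 13 and 10 without DMOG replicates 1, 3 and 4, beside 602, 2492 and 1544 genes. In those fits 2 members were called higher without DMOG replicate 3, beside 2264 genes. Without any of the other 5 libraries 0 members were called higher, beside 389 to 1318 genes.

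**Figure D1:**
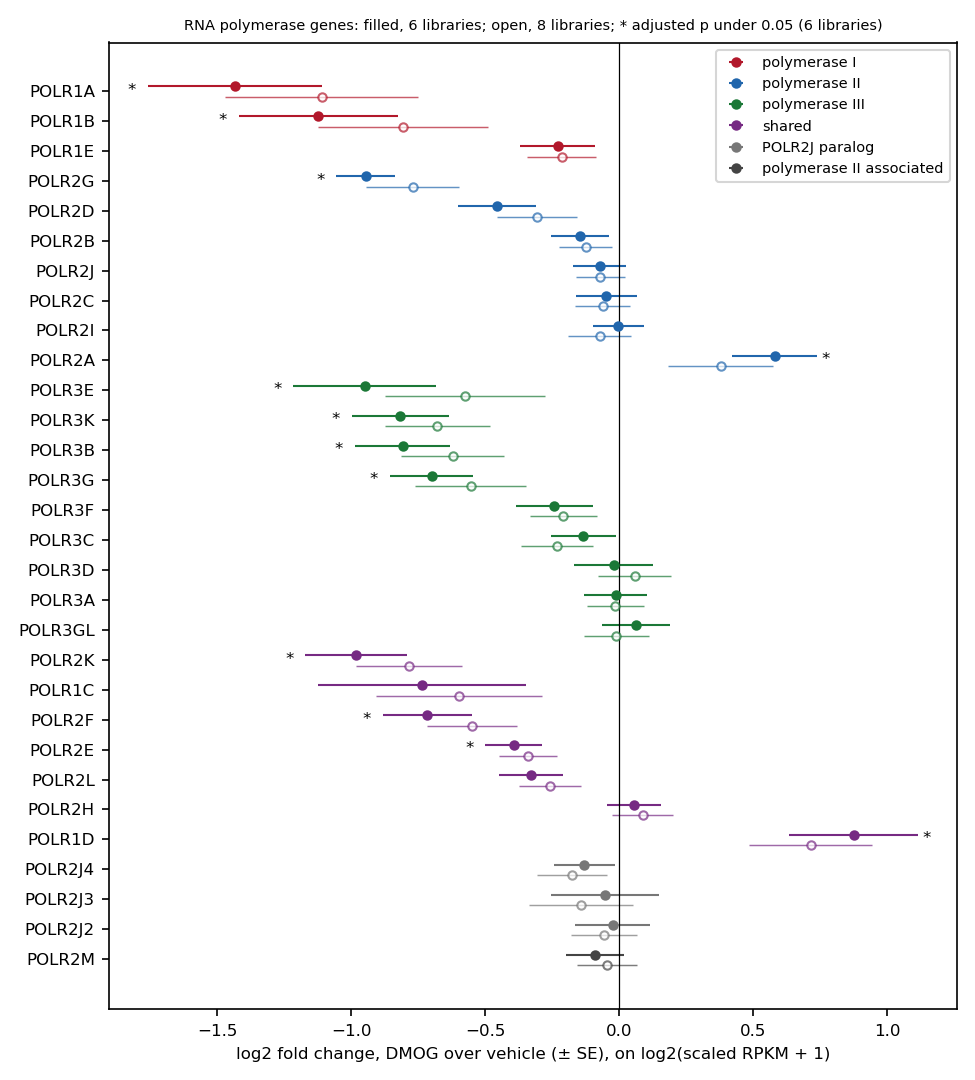
Log2 fold change of 30 polymerase genes, DMOG over vehicle, with its standard error on the log2(scaled RPKM + 1) scale, with filled points for 6 libraries, open points for 8, colours for the class and stars for adjusted p under 0.05 over 6 libraries. Genes with stars to the left of 0 appear in every class except the POLR2J paralogs and POLR2M, and POLR2A and POLR1D are the 2 genes with stars to the right of 0.

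Promoter sequences were available from RefSeq (GRCh38.p14) for 21 of the 31 members, with 27 listed start sites. The 250 bases before 4 of these starts are shown: POLR1A had the largest fall, POLR2A and POLR1D were the genes that rose, and POLR3E, among the genes that fell, holds a motif of transfer RNA genes. They are written 5′ to 3′ on the gene's strand. Capitals mark ACGTG or GCGTG on either strand, the core of the element bound by hypoxia-inducible factors, and in POLR3E also the B box of transfer RNA genes, which directly follows a GCGTG there.
POLR1A, chr2:86105887-86106136 on the minus strand: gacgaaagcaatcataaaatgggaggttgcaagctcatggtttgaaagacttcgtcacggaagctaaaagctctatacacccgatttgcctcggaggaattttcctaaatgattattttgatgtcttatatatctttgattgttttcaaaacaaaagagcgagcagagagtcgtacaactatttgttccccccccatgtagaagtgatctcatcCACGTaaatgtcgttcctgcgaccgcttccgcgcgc
POLR3E, chr16:22297159-22297408 on the plus strand: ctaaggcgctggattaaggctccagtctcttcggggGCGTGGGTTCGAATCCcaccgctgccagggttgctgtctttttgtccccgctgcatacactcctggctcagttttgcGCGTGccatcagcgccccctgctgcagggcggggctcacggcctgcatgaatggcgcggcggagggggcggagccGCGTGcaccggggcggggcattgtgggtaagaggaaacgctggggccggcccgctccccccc
POLR2A, chr17:7484116-7484365 on the plus strand: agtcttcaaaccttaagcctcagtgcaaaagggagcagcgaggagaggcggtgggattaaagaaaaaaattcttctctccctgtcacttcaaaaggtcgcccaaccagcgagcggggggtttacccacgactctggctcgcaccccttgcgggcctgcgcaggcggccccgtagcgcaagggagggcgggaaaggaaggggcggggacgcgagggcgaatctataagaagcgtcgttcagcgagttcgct
POLR1D, chr13:27620493-27620742 on the plus strand: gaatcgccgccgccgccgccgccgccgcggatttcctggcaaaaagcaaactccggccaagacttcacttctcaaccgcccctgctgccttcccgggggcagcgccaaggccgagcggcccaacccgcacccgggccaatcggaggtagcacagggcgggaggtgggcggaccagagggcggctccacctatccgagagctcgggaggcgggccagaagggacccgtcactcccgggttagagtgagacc
ACGTG or GCGTG was present in 19 of 27 member promoters, or 70.4%, and in 43.2% of all 35116 promoters searched over the same 250 bases. These 27 windows come from 21 members and are not all separate, as the windows of POLR2F overlap and hold the same match. POLR2G, POLR2K and POLR3G, which fell, are among the members without a promoter here. The members' promoters had a median GC content of 62.8%, against 58% over all promoters, and that difference was not adjusted for. POLR1A has 1 such match, POLR3E has 3, and the windows of POLR2A and POLR1D shown here have none. The windows of POLR2E, which fell, and of POLR3F and POLR2J2 also have none, so a match did not go with the direction of change in every gene. The second listed start of POLR1D has 1. The E-box CACGTG, which contains ACGTG on both strands, was present in 2 of 27 member promoters, those of POLR3A and POLR3C, or 7.41%, and in 6.34% of all promoters. The B box, searched after the sequence of POLR3E had been seen, was present in 26 of all promoters (0.074%). A match is a description of letters and was not tested as a binding site.

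Polymerase I gave the largest falls among the members. POLR1A, its largest subunit, which forms part of the active site (chromosome 2, 86253451 to 86333278, hg19, minus strand), had 1.3, 4.72, 2.89 and 0.475 scaled RPKM in DMOG replicates 1 to 4, against 5.78, 5.30, 4.85 and 5.54 in vehicle replicates 1 to 4. Every DMOG library lay below every vehicle library, and DMOG replicate 4 was lowest, at 8.85% of the vehicle mean. Over 6 libraries POLR1A averaged 1.56 ± 1.23 with DMOG and 5.39 ± 0.485 with vehicle (SD, n = 3 each), and the log2 fold change was -1.43 ± 0.32 SE (adjusted p = 0.0198). Over 8 libraries it was -1.11 ± 0.36 (adjusted p = 0.118).

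POLR1B, the second largest subunit, which completes the active site (chromosome 2, 113299492 to 113334729), had 1.28, 3.15, 1.88 and 0.221 scaled RPKM in DMOG replicates 1 to 4, against 3.56, 2.74, 3.28 and 3.23 in vehicle replicates 1 to 4. DMOG replicate 2 lay among the vehicle libraries, and the other DMOG libraries lay below them. The log2 fold change was -1.12 ± 0.30 over 6 libraries (adjusted p = 0.0310) and -0.81 ± 0.32 over 8 (adjusted p = 0.139). POLR1E, a subunit of the part of the enzyme that helps it start, had 4.17, 4.70, 4.49 and 3.29 with DMOG and 4.91, 5.39, 5.35 and 4.22 with vehicle. Its groups overlapped and it did not pass (-0.23 ± 0.14, adjusted p = 0.241). The calls ended without any one of vehicle replicates 1, 3 and 4 and DMOG replicate 1 for POLR1A (adjusted p = 0.0727, 0.0509, 0.0691 and 0.0708) and POLR1B (0.0978, 0.0775, 0.0879 and 0.0757), and the call of POLR1B was also lost with a pseudocount of 0.1 (0.0632) and with no filter (0.0691).

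**Figure D2:**
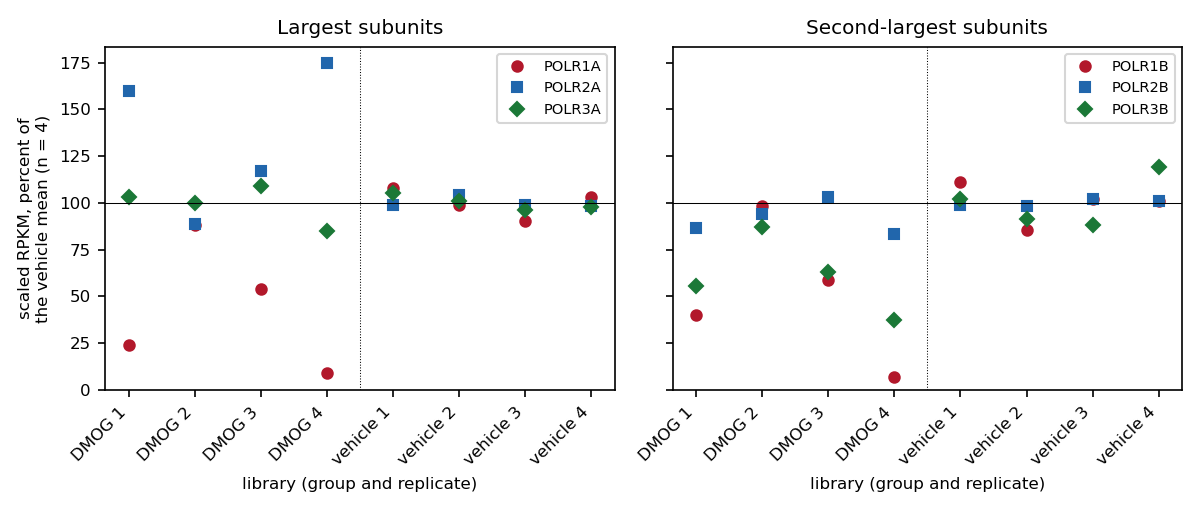
Scaled RPKM of the largest (left) and second largest (right) subunit of each polymerase, as a percentage of the mean of the 4 vehicle libraries, in each of the 8 libraries. In DMOG replicates 1, 3 and 4 POLR1A stood at 24.1%, 53.9% and 8.85%, POLR2A at 160%, 117% and 175%, and POLR3A at 103%, 109% and 85.0%.

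Of the 7 subunits of polymerase II 1 was called higher and 1 lower over 6 libraries (14.3% each). These shares are near the 13.9% and 16.0% of all genes tested. Of the catalytic subunits of polymerase II, POLR2A was called higher and POLR2B was not called. POLR2A, its largest subunit, which carries the repeated tail that recruits RNA processing factors (chromosome 17, 7387698 to 7417935, plus strand), had 68.9, 38.2, 50.1 and 75.3 scaled RPKM in DMOG replicates 1 to 4, against 42.3, 44.8, 42.4 and 42.3 in vehicle replicates 1 to 4. DMOG replicates 1, 3 and 4 lay above all vehicle libraries and DMOG replicate 2 lay below all of them. In RPKM as deposited, DMOG replicate 3 (46.3) lay below vehicle replicates 1 and 4 (47.28 and 47.75). Over 6 libraries POLR2A averaged 64.8 ± 13.1 with DMOG and 42.3 ± 0.0396 with vehicle (SD, n = 3 each), and the log2 fold change was 0.58 ± 0.16 (adjusted p = 0.0338). Over 8 libraries it was 0.38 ± 0.20 (adjusted p = 0.213). The call was lost with RPKM as deposited (adjusted p = 0.152), with no filter (0.0663), without vehicle replicates 1, 3 and 4 (0.105, 0.0864 and 0.1) and without DMOG replicates 1 and 4 (0.113 and 0.0631).

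POLR2B, the second largest subunit, had 18.9, 20.6, 22.4 and 18.3 scaled RPKM with DMOG and 21.6, 21.4, 22.2 and 22.2 with vehicle, and did not pass (-0.15 ± 0.11, adjusted p = 0.325). The subunits nearest to 0 were POLR2I, a small subunit of the core, with 22.9, 23.6, 21.0 and 22.7 in DMOG libraries and 23.6, 28.9, 22.0 and 21.2 in vehicle libraries (-0.00 ± 0.10), and POLR2C, a subunit of the assembly platform, with 23.7, 21.4, 25.7 and 20.7 against 23.1, 23.1, 25.7 and 23.5 (-0.05 ± 0.11). POLR2J, the partner of POLR2C in that platform, had 31.0, 34.0, 34.2 and 35.1 against 34.3, 35.6, 37.2 and 34.1. In all 4 genes the groups overlapped. POLR2B, POLR2C, POLR2I and POLR2J overlap IGFBP7, DOK4, TBCB and LRWD1 on the opposite strand, and the handling of strand is not stated in the labels or files, so their levels are uncertain.

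POLR2G, which with POLR2D forms the stalk beside the RNA exit channel (chromosome 11, 62529011 to 62534187, plus strand), had 19.1, 32.9, 22.2 and 17.7 scaled RPKM in DMOG replicates 1 to 4, against 37.8, 39.1, 38.9 and 39.3 in vehicle replicates 1 to 4. All DMOG libraries lay below all vehicle libraries. The log2 fold change was -0.95 ± 0.11 over 6 libraries (adjusted p = 0.00445, the smallest of any member) and -0.77 ± 0.17 over 8 (adjusted p = 0.118). POLR2G remained called without any single library of the 6 (adjusted p = 0.00151 to 0.0319). POLR2D had 6.76, 7.95, 7.5 and 5.18 with DMOG and 10.1, 7.12, 8.44 and 9.04 with vehicle. It did not pass (-0.45 ± 0.15, adjusted p = 0.0539), but was called with the replicate block (0.0451), without DMOG replicate 3 (0.0225) and with RPKM as deposited (0.0158).

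Polymerase III had 5 of its 10 subunits called lower (50.0%) and 0 higher, beside 16.0% and 13.9% of all genes tested. Its median log2 fold change was -0.47. Among those called lower were a catalytic subunit and a small core subunit. POLR3B, the second largest subunit, had 3.29, 5.15, 3.73 and 2.21 with DMOG and 6.02, 5.40, 5.21 and 7.02 with vehicle (-0.81 ± 0.18, adjusted p = 0.0181). POLR3K, a small subunit that helps cleave and release the transcript, had 4.30, 6.53, 4.71 and 2.72 with DMOG and 8.44, 8.06, 7.07 and 7.07 with vehicle (-0.82 ± 0.18, adjusted p = 0.0183). In both genes every DMOG library lay below every vehicle library. As deposited, POLR3B overlapped over 8 libraries, with 5.403 RPKM in DMOG replicate 2 and 5.399 in vehicle replicate 2. POLR3E, which pairs with POLR3D in initiation and termination, had 3.27, 7.39, 6.05 and 2.23 with DMOG and 7.58, 4.75, 8.31 and 7.76 with vehicle (-0.95 ± 0.27, adjusted p = 0.0374). Vehicle replicate 2 lay below DMOG replicates 2 and 3, so the groups overlapped over 8 libraries. Adding vehicle replicate 2 to the 6 libraries ended the call (0.0562). Over 8 libraries POLR3B, POLR3K and POLR3E had -0.62, -0.68 and -0.58 (adjusted p = 0.118, 0.118 and 0.214).

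POLR3A, the largest subunit of polymerase III, lay nearest to 0, with 5.35, 5.20, 5.65 and 4.42 scaled RPKM in DMOG libraries and 5.45, 5.27, 4.99 and 5.08 in vehicle libraries (-0.01 ± 0.12, adjusted p = 0.94). POLR3D had 14.0, 13.2, 14.9 and 10.5 with DMOG and 12.7, 10.6, 14.6 and 12.4 with vehicle (-0.02 ± 0.15). POLR3C and POLR3F, which form the initiation subcomplex with POLR3G or POLR3GL, did not pass (-0.13 ± 0.12 and -0.24 ± 0.14). The largest subunit of polymerase III and the catalytic partner it binds therefore had different values, with POLR3A at 103%, 109% and 85.0% of its vehicle mean in DMOG replicates 1, 3 and 4 and POLR3B at 55.7%, 63.1% and 37.4%. That difference was not tested.

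POLR3G and POLR3GL are paralogs that take the same place in the enzyme, and POLR3G is known as the form of stem cells and proliferating cells. POLR3G had 0.909, 2.25, 1.26 and 0.555 scaled RPKM in DMOG replicates 1 to 4, against 2.09, 2.52, 1.96 and 2.15 in vehicle replicates 1 to 4. DMOG replicates 1, 3 and 4 lay below all vehicle libraries and DMOG replicate 2 among them (-0.70 ± 0.15 over 6 libraries, adjusted p = 0.0182, and -0.55 ± 0.21 over 8, adjusted p = 0.131). POLR3GL had 10.8, 9.47, 10.3 and 8.18 with DMOG and 9.57, 11.3, 8.65 and 9.49 with vehicle, and its groups overlapped (0.06 ± 0.13, adjusted p = 0.719). POLR3GL was the more abundant per length in every library. The ratio of POLR3G to POLR3GL in deposited RPKM was 0.0845, 0.237, 0.123 and 0.0678 in DMOG replicates 1 to 4, against 0.219, 0.223, 0.227 and 0.226 in vehicle replicates 1 to 4. This ratio does not depend on the scaling between libraries. Without any one of vehicle replicates 1 and 4 and DMOG replicate 1 the calls ended for POLR3B (adjusted p = 0.0697, 0.0735 and 0.0575), POLR3G (0.0708, 0.0700 and 0.0650) and POLR3K (0.0772, 0.0599 and 0.0541), and for POLR3E also without vehicle replicate 3, without DMOG replicate 4 and with no filter (0.0541 is the lowest and 0.114 the highest of all these values).

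**Figure D3:**
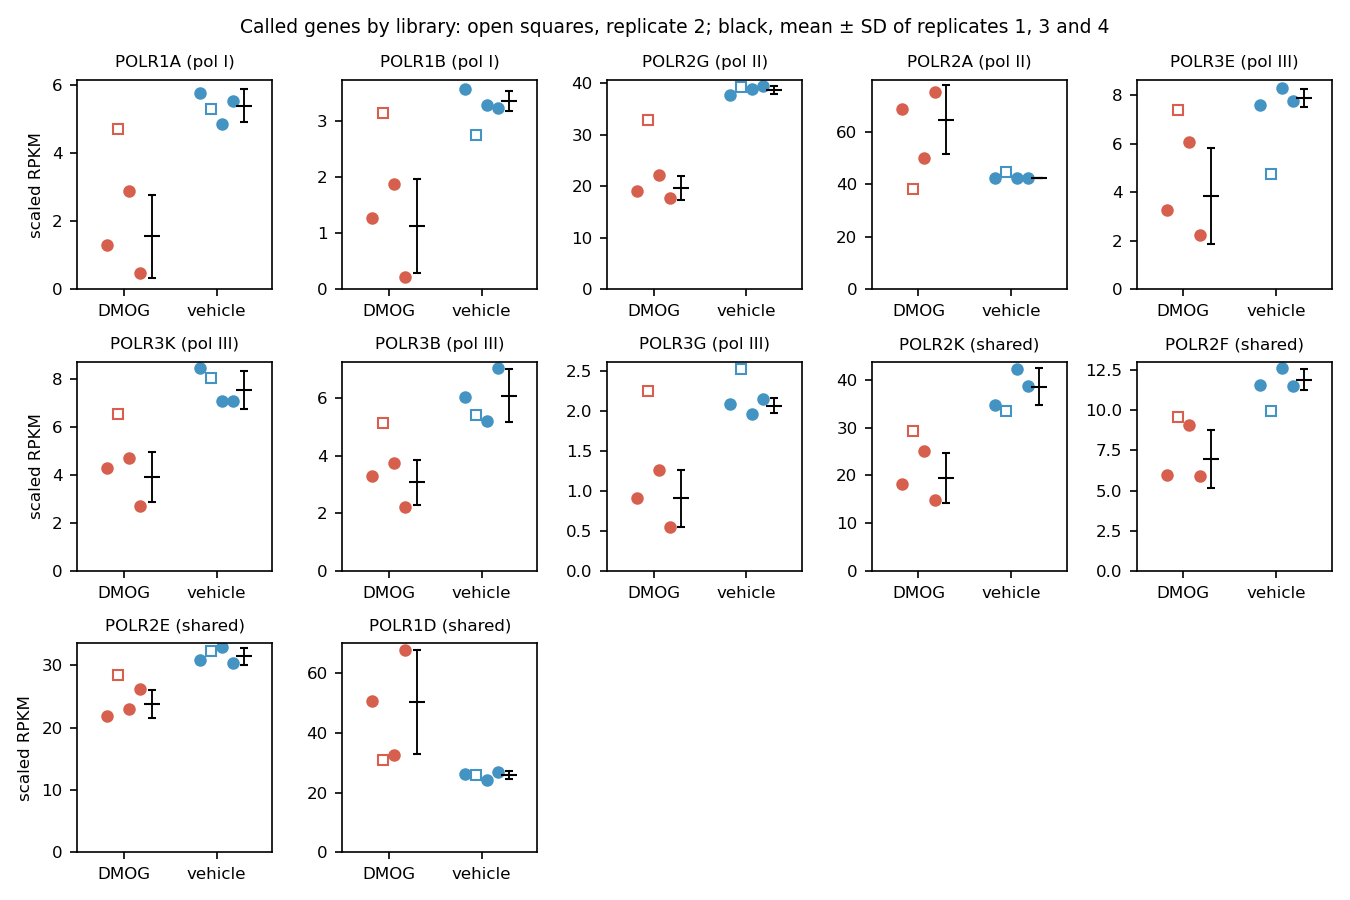
Scaled RPKM of 12 members called over 6 libraries, with DMOG libraries left of vehicle libraries, where filled circles are replicates 1, 3 and 4, open squares are replicate 2, and black marks give the mean ± SD of replicates 1, 3 and 4. In the 10 genes drawn that fell, the open square is the highest DMOG point, and replicate 2 did not enter the calls.

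Of the 7 shared subunits 3 fell (42.9%) and 1 rose (14.3%), beside 16.0% and 13.9% of all genes tested, so the share that rose is near that of all genes. POLR2K, a small zinc-binding subunit, had 18.2, 29.2, 25.2 and 14.9 scaled RPKM in DMOG replicates 1 to 4, against 34.7, 33.4, 42.4 and 38.8 in vehicle replicates 1 to 4 (-0.98 ± 0.19 over 6 libraries, adjusted p = 0.0127). POLR2F, a core subunit, had 5.97, 9.55, 9.07 and 5.89 with DMOG and 11.5, 9.92, 12.7 and 11.5 with vehicle (-0.72 ± 0.17, adjusted p = 0.0208). POLR2E, a subunit of the jaw that grips DNA, had 21.9, 28.4, 23.1 and 26.3 with DMOG and 30.9, 32.3, 33 and 30.3 with vehicle (-0.39 ± 0.11, adjusted p = 0.0323). In these 3 genes every DMOG library lay below every vehicle library. As deposited, POLR2F overlapped over 8 libraries, with 10.02 RPKM in DMOG replicate 2 and 9.929 in vehicle replicate 2. Over 8 libraries POLR2K, POLR2F and POLR2E had -0.78, -0.55 and -0.34 (adjusted p = 0.118 for each).

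POLR2L, which had the highest vehicle level per length of the members, had 53.3, 62.4, 64.8 and 64.7 scaled RPKM with DMOG and 72.6, 64.4, 81.6 and 75.3 with vehicle, and did not pass (-0.33 ± 0.12, adjusted p = 0.0732), although it was called with the replicate block (0.0400). POLR2H, another core subunit, had 11.1, 10.8, 12.3 and 13 against 11.5, 9.34, 12 and 11.2, with overlapping groups (0.06 ± 0.10). The calls of POLR2E and POLR2F were lost without vehicle replicates 1, 3 and 4 or DMOG replicate 1 (adjusted p = 0.0668 to 0.113), and that of POLR2K without vehicle replicate 4 (0.0520) or DMOG replicate 1 (0.0547).

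POLR1C and POLR1D bind each other as the assembly platform of polymerases I and III, and of these POLR1D was called higher and POLR1C was not called. POLR1D (chromosome 13, 28194880 to 28241559, plus strand) had 50.7, 30.7, 32.7 and 67.6 scaled RPKM in DMOG replicates 1 to 4, against 26.3, 25.9, 24.4 and 26.9 in vehicle replicates 1 to 4. Every DMOG library lay above every vehicle library. In RPKM as deposited the groups overlapped, with 30.22 in DMOG replicate 3 and 30.4 in vehicle replicate 4. The log2 fold change was 0.87 ± 0.24 over 6 libraries (adjusted p = 0.0356) and 0.72 ± 0.23 over 8 (adjusted p = 0.118). POLR1C had 6.79, 7.94, 10.9 and 2.68 with DMOG and 10.2, 9.10, 11.8 and 10.1 with vehicle, and did not pass (-0.74 ± 0.39, adjusted p = 0.180). Its DMOG libraries were spread widely, and without DMOG replicate 3 it was called (0.0281). The call of POLR1D was lost with RPKM as deposited (adjusted p = 0.0733), with no filter (0.0767), without vehicle replicates 1, 3 and 4 (0.1, 0.0973 and 0.0935) and without DMOG replicates 1 and 4 (0.109 and 0.0501). POLR1D has 2 listed promoters, and the table does not separate its transcripts.

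The remaining members are relatives of polymerase II subunits, and 0 of 4 were called over 6 libraries in either direction. Of all genes tested 16.0% were called lower and 13.9% higher, so 0 of 4 says little about these members. POLR2J2 had 2.35, 2.15, 2.41 and 1.93 scaled RPKM with DMOG and 2.38, 2.50, 2.66 and 1.83 with vehicle, and POLR2J3 had 10.2, 12.6, 13.2 and 10.1 against 12.5, 17.0, 14.4 and 8.45. POLR2J4 averaged 2.53 ± 0.109 with DMOG and 2.87 ± 0.315 with vehicle (SD, n = 3 each). These values are uncertain, because 97.6% of the 50-base windows of POLR2J2 transcripts, 40.8% of those of POLR2J3 and 36.7% of those of POLR2J also occur in transcripts of other genes in GENCODE 29. For POLR2J4 that share was 36%, and it overlaps UBE2D4 on the opposite strand (up to 2.93 RPKM). POLR2J2 also overlaps UPK3BL, which reached 225 RPKM, on the same strand. POLR2M, a protein that binds the finished polymerase II rather than a core subunit, had the lowest vehicle level of the members, at 0.972 ± 0.0899 with DMOG and 1.10 ± 0.120 with vehicle, and shares 19.5% of its windows, most of them with GCOM1. Among the members called, the highest share was 2.72%, for POLR3K.

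**Figure D4:**
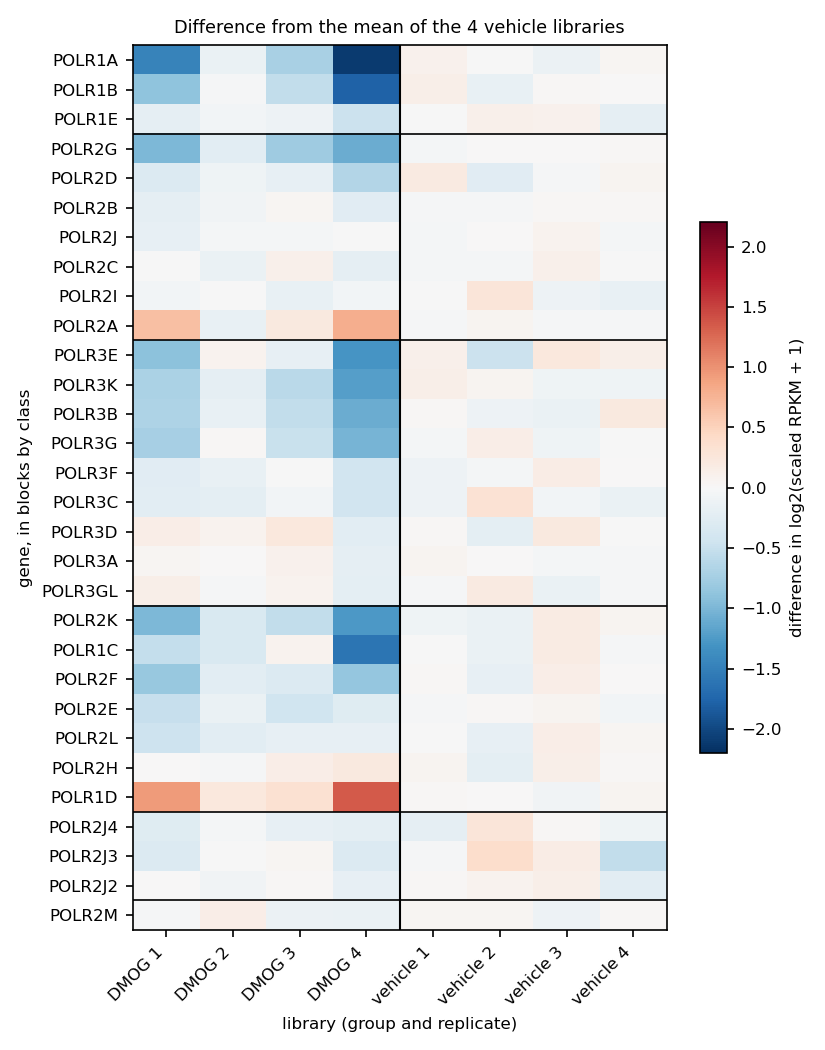
Difference of each library from the mean of the 4 vehicle libraries in log2(scaled RPKM + 1), for 30 members (rows, in blocks by class) and 8 libraries (columns, DMOG to the left of vehicle), with blue for lower and red for higher. DMOG replicates 1 and 4 have the deepest colours (medians over members -0.26 and -0.31), and DMOG replicate 2 is paler (-0.08).

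The DMOG libraries differed among themselves in much the same order in most of the members called. Of the 11 members called lower over 6 libraries, DMOG replicate 4 was the lowest DMOG library in 10 and DMOG replicate 1 in 1, and DMOG replicate 2 was the highest in all 11. In both members called higher, DMOG replicate 4 was the highest and DMOG replicate 2 the lowest. Those calls were made on replicates 1, 3 and 4, so the place of DMOG replicate 2 follows in part from that choice. The same order was not counted over all genes. DMOG replicate 2 did not enter those calls, but vehicle replicates 1, 3 and 4 did. DMOG replicate 2 lay below the vehicle mean in 9 of the 11 genes called lower, at 78.3% to 104% of that mean, and below all 4 vehicle libraries in 8 of them. In log2(scaled RPKM + 1), it lay below the vehicle mean in 25 of all 31 members and in 5823 of the 11122 genes tested. It lay below all 4 vehicle libraries in 16 of the 31 members, and that count was not taken over all genes. Over all 31 members, the median difference from the vehicle mean was -0.26, -0.08, -0.13 and -0.31 in DMOG replicates 1 to 4, against -0.01, 0.00, 0.03 and -0.01 in vehicle replicates 1 to 4, in log2(scaled RPKM + 1).

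By class, the same median in DMOG replicates 1 to 4 was -0.88, -0.06, -0.54 and -1.78 for the 3 polymerase I subunits, -0.18, -0.10, -0.04 and -0.20 for the 7 polymerase II subunits, -0.46, -0.09, -0.12 and -0.72 for the 10 polymerase III subunits, and -0.51, -0.23, -0.17 and -0.26 for the 7 shared subunits. Differences between classes were not tested. Over 6 libraries all DMOG libraries lay below all vehicle libraries for 13 members and above for 2, beside 26.5% and 24.7% of all genes. Over 8 libraries they lay below for 8 and above for 1, beside 7.33% and 5.04% of all genes. With RPKM as deposited, all DMOG libraries lay below all vehicle libraries for 26 members and above for 0 over 6 libraries. That split thus depends on the scaling, and it was not counted over all genes as deposited. In a bulk culture, fewer cells of a kind and less RNA per cell cannot be told apart.

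Subunits listed under other symbols fall outside the symbol rule, and 0 of the 4 on the list, TWISTNB, CD3EAP, ZNRD1 and CRCP, were called over 6 libraries. With 16.0% of all genes tested called lower and 13.9% higher, that count says little about these 4 genes. The polymerase I subunits TWISTNB, CD3EAP and ZNRD1 had log2 fold changes of -0.65 ± 0.28, -0.68 ± 0.34 and -0.19 ± 0.11 over 6 libraries and did not pass (adjusted p = 0.113, 0.161 and 0.200). CRCP, a polymerase III subunit, had 0.08 ± 0.21 (adjusted p = 0.781). The fifth gene of that list, POLRMT, is the single-subunit polymerase of mitochondria and fell to 9.93 ± 1.24 scaled RPKM with DMOG, against 14.6 ± 0.522 with vehicle (SD, n = 3 each, -0.52 ± 0.12, adjusted p = 0.0189).

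The counts in the lists that follow stand beside 16.0% of all genes tested called lower and 13.9% called higher. Of 8 polymerase I factors 1 fell (12.5%) and 1 rose (12.5%) (median -0.07): RRN3, which brings polymerase I to its promoter, fell by 0.80 on the log2 scale (adjusted p = 0.00857) and TTF1, a terminator protein, rose by 0.50 (0.0155). PTRF, also known as a caveolar protein, had 0.62 (0.057). Of 18 general factors of polymerase II 3 fell, or 16.7%, which is near the share of all genes, and 0 rose (median -0.18). They were GTF2H3 of TFIIH (-1.23 ± 0.15, adjusted p = 0.00515), GTF2F2 of TFIIF (-0.66 ± 0.09, 0.00669) and MNAT1 of the kinase module of TFIIH (-0.54 ± 0.11, 0.0148). Of 21 elongation factors of polymerase II 3 fell (14.3%) and 1 rose (4.76%), with a median of 0.03. TCEA1, which rescues stalled polymerase II, had -0.83 ± 0.11 (0.00538), ELL2 had 0.76 ± 0.27 (0.0716), and NELFE of the negative elongation factor had -0.55 ± 0.12 (0.0156).

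Of 16 polymerase III factors 3 fell (18.8%) and 2 rose (12.5%), shares near those of all genes, with a median of -0.04. GTF3C6, a subunit of TFIIIC, had -1.13 ± 0.16 (adjusted p = 0.00628), SNAPC5, a subunit of the complex that activates small nuclear RNA genes, had -0.99 ± 0.18 (0.0108), and SNAPC3 of the same complex had 0.51 ± 0.27 (0.180). Of 10 genes for assembly and nuclear import of polymerases 3 fell (30.0%) and 1 rose (10.0%), with a median of -0.20. RUVBL1 and RUVBL2, the paired ATPases of the chaperone complex that assembles polymerases, fell to 5.62 ± 3.99 and 24.3 ± 4.84 scaled RPKM with DMOG, against 19.4 ± 0.422 and 40.0 ± 2.12 with vehicle (SD, n = 3 each, -1.80 ± 0.39, adjusted p = 0.0172, and -0.71 ± 0.15, adjusted p = 0.0148). GPN3, a GTPase of polymerase import, had -0.57 ± 0.15 (0.0332). Over all 8 libraries, 0 genes of these lists passed. The lists were written with earlier results of these data known.

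Of 6 proliferation markers, 1 was called lower. Their summed scaled RPKM over 6 genes was 11.1 to 32.2 in DMOG libraries and 25.9 to 40.3 in vehicle libraries, with 32.2 in DMOG replicate 2. Only PCNA and MCM2 of the 6 reached the filter, and PCNA, the sliding clamp of DNA replication, fell by 1.05 on the log2 scale (adjusted p = 0.00892), while MCM2 had 0.04 (0.900). The part of proliferation in the polymerase values was not tested.

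In the authors' deposited table, which rests on the same 6 libraries, 12 of the 31 members were lower and 2 higher at an adjusted p under 0.05. The 13 members called here over 6 libraries were all among those 14, and the additional one was POLR2D, with a log2 ratio of -0.50 and an adjusted p of 0.0335 in the authors' deposited table. The authors' deposited table gives POLR1A the largest change among members, with a log2 ratio of -1.795, and POLR2G the smallest adjusted p, 1.9e-09. It shares its libraries with the fit given here and is no separate evidence. Calls over all its genes were not counted, so its 12 and 2 members have no background beside them.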

How the data were processed

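Expression was measured by RNA sequencing in 4 DMOG and 4 vehicle libraries. The authors deposited RPKM values for 25369 rows in a table named as raw counts. HTSeq 0.6.1, TopHat2 2.0.13 and Bowtie2 2.2.3.0 are among the tools listed, with no role, per the submitters' processing notes, which name both hg19 and hg38. Gene positions are those of the table. Per the file headers, the authors deposited a second table with normalized group means on a signal scale, their ratio, its log2 value, and p-values with adjusted p-values. Its group means were matched within 0.001 for 13264 of 13265 genes (DMOG) and 13265 of 13266 (vehicle) by weights on replicates 1, 3 and 4.

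RPKM times gene length gave whole reads for 100% of values above 0 within 0.01 reads. A gene listed at 0 could hold up to 3 reads by counting error alone, and no member was at 0. Median-ratio factors were computed over all 8 libraries. Limma-trend (limma 3.58.1, R 4.3.3, robust empirical Bayes) was fitted to log2(scaled RPKM + 1) over the 11122 rows that had 4 libraries at 1 RPKM or above, with group as the only term, two-sided, and p-values were Benjamini-Hochberg adjusted, with calls at 0.05. Fold changes are DMOG minus vehicle and understate the change of low genes. The fitting code was tested on simulated data.

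The members and gene lists were chosen with earlier results of these data known. 1 member is counted but not reported here. Full values are given for called members, for those with the largest fold changes and those nearest to 0 in each class, and for paralogs, and of each other list the 3 genes with the largest fold changes. Replicate numbers come from the sample titles. Over 6 libraries, deviations from the group means correlated between same-numbered libraries at 0.466, 0.397 and 0.34 for numbers 1, 3 and 4, so the numbers were taken to pair the samples there. The calls reported nonetheless come from the fit without that pairing, and the replicate block is given as an alternative. Over 8 libraries the correlations were 0.073, -0.02, 0.529 and 0.238 for numbers 1 to 4, and the numbers were not taken to pair the samples. Alternatives were RPKM as deposited, trimmed-mean factors, factors over 6 libraries, a pseudocount of 0.1, no filter, limma-voom on reads, the replicate block, vehicle replicate 2 added, and each replicate left out. NELF genes were looked up by their newer symbols. Promoters were read from RefSeq (GRCh38.p14) and transcripts from GENCODE 29.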

Additional observations from a re-analysis of the deposited data

Results flagged for a closer look

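In 3 of the 62 groups of 4 libraries examined (31 members, 2 groups each), 1 library stood apart from the other 3 by Dixon's 95% criterion, and chance gives about 1 in 20. All are vehicle libraries. POLR2A in vehicle replicate 2 was at 44.8 scaled RPKM, beside 42.3 to 42.4 in the other vehicle libraries. POLR3C, of the initiation subcomplex of polymerase III, was at 12.2 in vehicle replicate 2, beside 8.61 to 9.21. POLR2M was at 0.96 in vehicle replicate 3, beside 1.16 to 1.19.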

How the results depend on the processing

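Over 6 libraries, trimmed-mean factors, factors over 6 libraries, a pseudocount of 0.1, limma-voom on reads and vehicle replicate 2 added kept the counts of called members and genes within 1.5 times of those reported. With RPKM as deposited, 0 members were higher and 19 lower, and 682 genes were higher and 3836 lower. With no filter, 0 members were higher, beside 1185 genes. With the replicate block, which among members changed no call beyond those of POLR2D and POLR2L, 2 members were higher and 13 lower (2196 and 2297 genes) over 6 libraries, and 0 and 0 over 8. Leaving out 1 library of the 6 gave 0 to 2 members higher and 1 to 13 lower, and 389 to 2264 genes higher and 497 to 2492 lower. Leaving out 1 of 8 gave 0 to 2 members higher and 0 to 10 lower, and 0 to 1730 genes higher and 0 to 1957 lower, with calls only without DMOG replicate 2. Signs changed only for members near 0. With RPKM as deposited, log2 fold changes were -0.228 for POLR2H and -0.215 for POLR3GL over 6 libraries, and -0.107 for POLR2H and -0.139 for POLR3D over 8. With vehicle replicate 2 added, POLR3D had 0.0528 and POLR3GL -0.00283. Leaving out 1 of 6 libraries gave -0.115 to 0.0343 for POLR2C, -0.0356 to 0.0387 for POLR2I, -0.128 to 0.0572 for POLR2J2, -0.256 to 0.0956 for POLR2J3, -0.0731 to 0.0744 for POLR3A, -0.111 to 0.121 for POLR3D and -0.00662 to 0.172 for POLR3GL. Leaving out 1 of 8 gave -0.125 to 0.0188 for POLR2I, -0.0517 to 0.0466 for POLR3A, -0.0138 to 0.154 for POLR3D and -0.0598 to 0.0603 for POLR3GL. The cause of these changes was not tested. The lowest member value rests on 32 reads, in POLR1B in DMOG replicate 4.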

Other observations

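The ratio of POLR1D to POLR1C, partners in the assembly platform of polymerases I and III, was 7.46, 3.87, 2.99 and 25.3 in deposited RPKM in DMOG replicates 1 to 4, against 2.59, 2.84, 2.07 and 2.68 in vehicle replicates 1 to 4, so every DMOG library lay above every vehicle library. The ratio of the largest subunits POLR1A and POLR2A was 0.0188, 0.124, 0.0578 and 0.00631 in DMOG replicates 1 to 4, against 0.137, 0.118, 0.114 and 0.131 in vehicle replicates 1 to 4. DMOG replicate 2 lay among the vehicle libraries in that ratio and the other DMOG libraries below them. The ratio of POLR3A to POLR2A was 0.0776, 0.136, 0.113 and 0.0587 with DMOG and 0.129, 0.118, 0.118 and 0.12 with vehicle. These ratios within a library do not depend on the scaling between libraries. They were chosen after the values of their genes had been seen and were not tested.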
